A study of Mus musculus with 6 samples.

Results

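The genes described here encode the proteins of the mitochondrial ribosome. They were chosen by name, as every protein-coding gene whose symbol in the GENCODE mouse annotation is Mrpl or Mrps followed by a digit. There were 78 such genes among the 55487 gene identifiers in the tables, 49 Mrpl and 29 Mrps, spread over 17 chromosomes. All 78 were present in the tables and all 78 had enough reads to be tested, so no member was lost to a filter on low counts.

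The cells were splenic naive CD4+ T cells of wild-type (WT) mice, strain C57BL6/J. For 3 libraries the mice had been treated in vivo with rapamycin, an inhibitor of the kinase mTOR, and for the other 3 they had received no treatment. Dose, duration, sex and age, and whether each library came from its own mouse, are not given in the labels, so the p-values reflect variation among libraries that may be technical replicates. Total expected counts were 9315370, 9014202 and 8757280 in the rapamycin libraries and 11393317, 10384573 and 9712671 in the untreated libraries, and a member averaged between 70.2 and 1020 counts per library.

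The mitochondrial ribosome, or mitoribosome, translates the few mRNAs that mitochondrial DNA encodes, all of which make subunits of the respiratory chain and ATP synthase. Its RNA core comes from mitochondrial DNA, but its proteins are made in the cytosol from nuclear genes and imported. Mrpl genes are named for the large subunit, where peptide bonds form, and Mrps genes for the small subunit, where the mRNA is decoded. Many members descend from bacterial ribosomal proteins, and others were added to the ribosome within mitochondria. mTOR complex 1 is a kinase that couples nutrients and growth factors to cell growth and mitochondrial function, and naive T cells enlarge their mitochondrial translation capacity when they are activated.

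The nuclear promoters of these genes are usually GC-rich and without a TATA box, and factors of the ETS family such as GABP are known to act at many of them. The stretches below show the 120 bases before the RefSeq start (GRCm38.p6 build, printed in the direction of transcription) of 7 members, kept to stretches with no annotated exon of any gene. They are the 4 such members of smallest adjusted p with an ETS core, the first with another motif and the first pair with none in the stretch. Capitals mark the ETS core CCGGAAG read on either strand in the first 4 sequences and the E-box CACGTG in Mrpl20. Mrpl48 has 4 RefSeq starts, and its stretch precedes 1 that lies inside the annotated gene (chr7:100545751-100608301).
Mrpl52 (chr14:54426789-54426908, plus strand): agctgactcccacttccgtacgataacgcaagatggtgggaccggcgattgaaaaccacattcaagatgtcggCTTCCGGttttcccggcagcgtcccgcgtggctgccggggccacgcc
Mrpl58 (chr11:115403632-115403751, plus strand): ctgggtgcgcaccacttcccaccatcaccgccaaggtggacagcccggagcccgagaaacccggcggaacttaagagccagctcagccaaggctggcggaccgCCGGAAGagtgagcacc
Mrps22 (chr9:98601680-98601799, minus strand): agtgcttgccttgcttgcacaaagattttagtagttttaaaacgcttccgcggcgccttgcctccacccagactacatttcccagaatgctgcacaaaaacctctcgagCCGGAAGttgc
Mrpl48 (chr7:100583131-100583250, minus strand): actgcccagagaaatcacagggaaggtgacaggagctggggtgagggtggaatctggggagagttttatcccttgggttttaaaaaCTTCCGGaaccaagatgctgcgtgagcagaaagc
Mrpl20 (chr4:155802758-155802877, plus strand): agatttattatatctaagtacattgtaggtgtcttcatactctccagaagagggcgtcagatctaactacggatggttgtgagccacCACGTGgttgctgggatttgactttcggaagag
Mrps16 (chr14:20393635-20393754, minus strand): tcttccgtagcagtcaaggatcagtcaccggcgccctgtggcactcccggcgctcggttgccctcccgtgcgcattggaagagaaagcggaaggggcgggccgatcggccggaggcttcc
Mrps23 (chr11:88204268-88204387, plus strand): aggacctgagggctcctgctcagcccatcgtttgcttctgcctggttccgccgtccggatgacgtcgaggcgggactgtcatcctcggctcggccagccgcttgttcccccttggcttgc

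With rapamycin, most mitoribosome protein genes were lower. In edgeR's quasi-likelihood test on rounded expected counts, with Benjamini-Hochberg adjustment over all genes and a threshold of 0.05, 54 of 78 members fell, 0 rose and 24 did not pass. That is 69.2% of members lower, where 23.3% of all 11950 tested genes were lower and 24.1% higher. The median log2 fold change, rapamycin over untreated, was −0.37 over the members and −0.01 over all tested genes. Without adjustment, 58 members had p under 0.05, all of them lower, where 26.4% of all genes were lower at that threshold and 26.4% higher. DESeq2 called 46 members lower and 0 higher, where it called 16.6% of 13796 genes lower and 18.3% higher. The fold changes were modest, since 13 of the 54 lower members fell by 1.5-fold or more.

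Summed over the 78 genes, the members held 0.166%, 0.169% and 0.166% of counts in the rapamycin libraries and 0.212%, 0.210% and 0.212% in the untreated libraries. The groups did not overlap, and replicates of each group lay close together. Summed TPM (a level scaled for transcript length and library depth) was 3117, 3155 and 3078 in rapamycin and 3658, 3646 and 3758 in untreated libraries. On this length-scaled measure the rapamycin mean was 0.845 of the untreated mean. In RNA from a bulk sample, fewer cells of a type and less RNA per cell cannot be told apart.

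**Figure D1:**
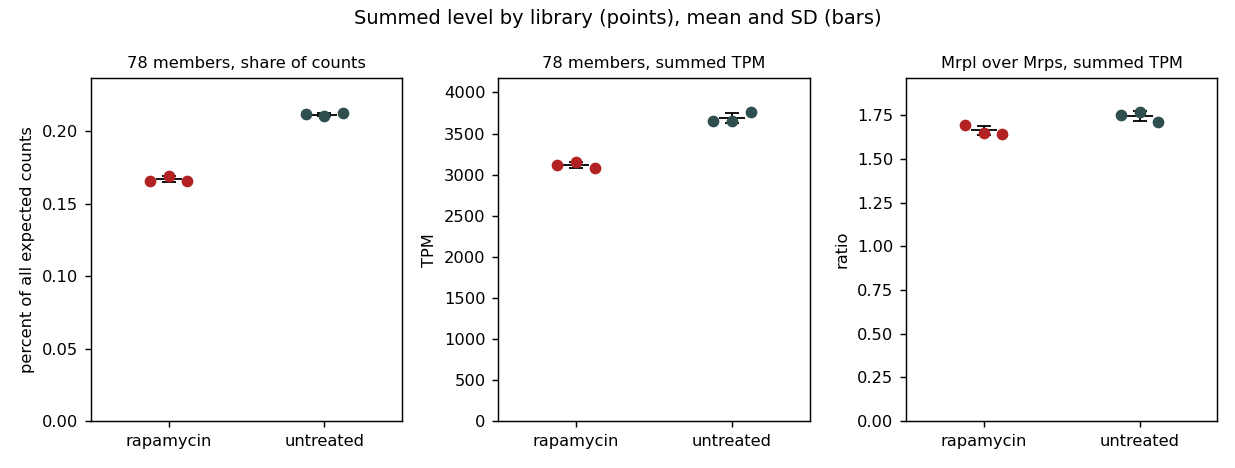
Share of all expected counts held by the 78 members (left, percent), their summed TPM (middle) and the ratio of summed Mrpl to summed Mrps TPM (right) in each library; points are libraries and bars the mean and SD of 3 libraries. The rapamycin libraries lie below the untreated libraries in all 3 panels.

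The markers of naive CD4+ T cells were present, and those of other cells differed between groups. Summed over 11 genes, naive CD4+ T cell markers lay between 7540 and 7600 TPM in rapamycin and between 7530 and 7640 TPM in untreated libraries. The even sum hides opposite changes, from −0.80 to 0.82. Of the 11 genes 6 were lower, 4 higher and 1 not called, where 23.3% of all genes were lower and 24.1% higher. After length correction 5 were lower and 6 higher. The CD8 chains Cd8a and Cd8b1 summed to between 76.6 and 80.1 TPM in rapamycin and between 17.6 and 19.2 TPM in untreated libraries, and both were higher. Myeloid markers summed to between 16.6 and 26.5 TPM in rapamycin and between 82.0 and 83.0 TPM in untreated libraries, and all 7 tested of the 9 were lower. Plasma cell markers summed to between 49.3 and 52.8 TPM in rapamycin and between 63.7 and 71.2 TPM in untreated libraries. Of these 5 markers 3 were lower, 1 higher and 1 not called. Erythroid markers summed to between 12.3 and 14.9 TPM in rapamycin and between 26.6 and 37.5 TPM in untreated libraries, and 2 of the 3 tested were lower. The sum of B cell markers, at 414 to 438 TPM in rapamycin and 402 to 431 TPM in untreated libraries, overlapped. So did that of NK cell markers, at 72.2 to 76.7 TPM in rapamycin and 70.8 to 74.3 TPM in untreated libraries. These sums also hide changes of single genes. Of the 7 B cell markers 2 were lower, 0 higher and 5 not called. Of the 6 tested NK cell markers 2 were lower, 1 higher and 3 not called, from −1.84 to 0.55. The 4 stromal markers summed to between 143 and 150 TPM in rapamycin and between 119 and 122 TPM in untreated libraries. Nearly all of that was Pecam1, the only stromal marker tested, which was higher (0.20), while Col1a2 was at 0 in every library and Col1a1 and Cdh5 were near 0. The part of these cells in the levels of the mitoribosome genes was not tested.

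The size of the fall depended on how gene length was treated. Member genes are short, with a median length of 1080 bases, and across 10500 other tested protein-coding genes the log2 fold change rose with length (Spearman's rho 0.47, a description across genes, which share the libraries). Among the members rho was 0.39 over 78 genes. The libraries also differed in fragment size. The median gap between length and effective length, which follows the mean fragment length, was 255.0, 250.5 and 256.5 bases in rapamycin and 239.8, 239.2 and 239.8 bases in untreated libraries. Its part in the length trend was not tested. A fit called length-corrected below removed each library's smooth trend with length. It brought rho with length to −0.06 among members and 0.01 among the other genes.

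After length correction 20 members were lower, 3 were higher and 55 did not pass. That is 25.6% lower and 3.85% higher, where 18.3% of all tested genes were lower and 20.2% higher, and the members' median was −0.11 against −0.01 over all genes. Of the members lower in the uncorrected fit, 19 were lower in both fits and 35 in the uncorrected fit only. A limma test on log2(TPM + 1), which scales each gene by its effective length, called 24 lower and 1 higher, where 9.63% of all genes were lower and 22.8% higher. Its median was −0.24 over members and 0.09 over all genes, so the members lay 0.33 below the median gene on that scale, compared with 0.36 below in the uncorrected fit and 0.10 below in the length-corrected fit.

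Members were also set beside other genes of the same length, with no model of the trend. Below 800 bases, 78.3% of 23 members were lower in the uncorrected fit and 67.6% of 392 other protein-coding genes, with medians of −0.44 and −0.38. From 800 to 1200 bases it was 80.0% of 25 members and 49.9% of 886 others, with medians of −0.39 and −0.26. From 1200 to 1800 bases it was 52.4% of 21 members and 37.8% of 1930 others, with medians of −0.22 and −0.16. In each of these bins the members' share was the higher one, by the least in the shortest bin. From 1800 to 3000 bases, 57.1% of only 7 members were lower and 22.1% of 3458 others, and the 2 members above 3000 bases were Mrpl19, which fell, and Mrps30, which did not pass. No member rose in any bin, whereas the share of other genes that rose went up with length, to 44.3% above 3000 bases.

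**Figure D2:**
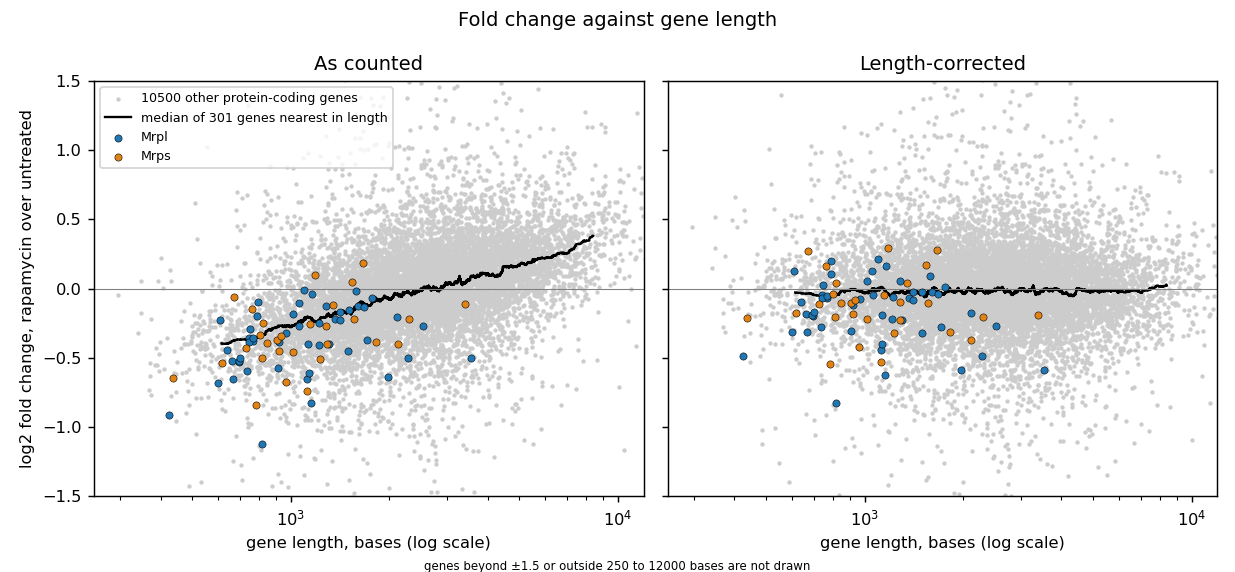
Log2 fold change, rapamycin over untreated, against gene length (bases, log scale) before (left) and after (right) length correction; grey points are other tested protein-coding genes, the line is a running median of genes nearest in length, and coloured points are Mrpl and Mrps genes. Before correction the line slopes upward, and after correction it is flat, with 60 of 78 members below 0.

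**Figure D3:**
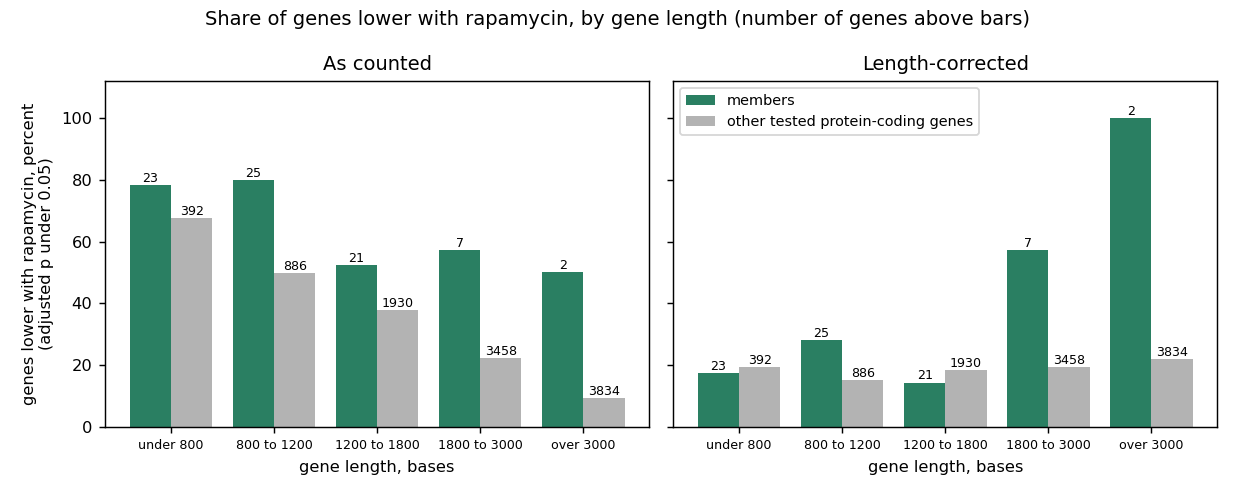
Percent of genes called lower with rapamycin (adjusted p under 0.05) by gene length in bases, for members (green) and other tested protein-coding genes (grey), before (left) and after (right) length correction; numbers above bars are genes per bin. Before correction the members' bar is the taller one in each bin, and after correction it is the shorter one in the bins below 800 and from 1200 to 1800 bases.

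After correction the bins parted. Below 800 bases 17.4% of members and 19.4% of others were lower, and from 1200 to 1800 bases 14.3% of members and 18.4% of others. From 800 to 1200 bases the shares were 28.0% of members and 15.2% of others, and from 1800 to 3000 bases 57.1% of 7 members and 19.3% of others. Lower in all 3 fits, that is uncorrected, length-corrected and on TPM, were 14 members, or 17.9%, where 6.5% of all tested genes were. They were Mrpl10, Mrpl11, Mrpl17, Mrpl36, Mrpl46, Mrpl51, Mrpl52, Mrpl55, Mrpl58, Mrps16, Mrps26, Mrps27, Mrps28 and Mrps34.

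**Figure D4:**
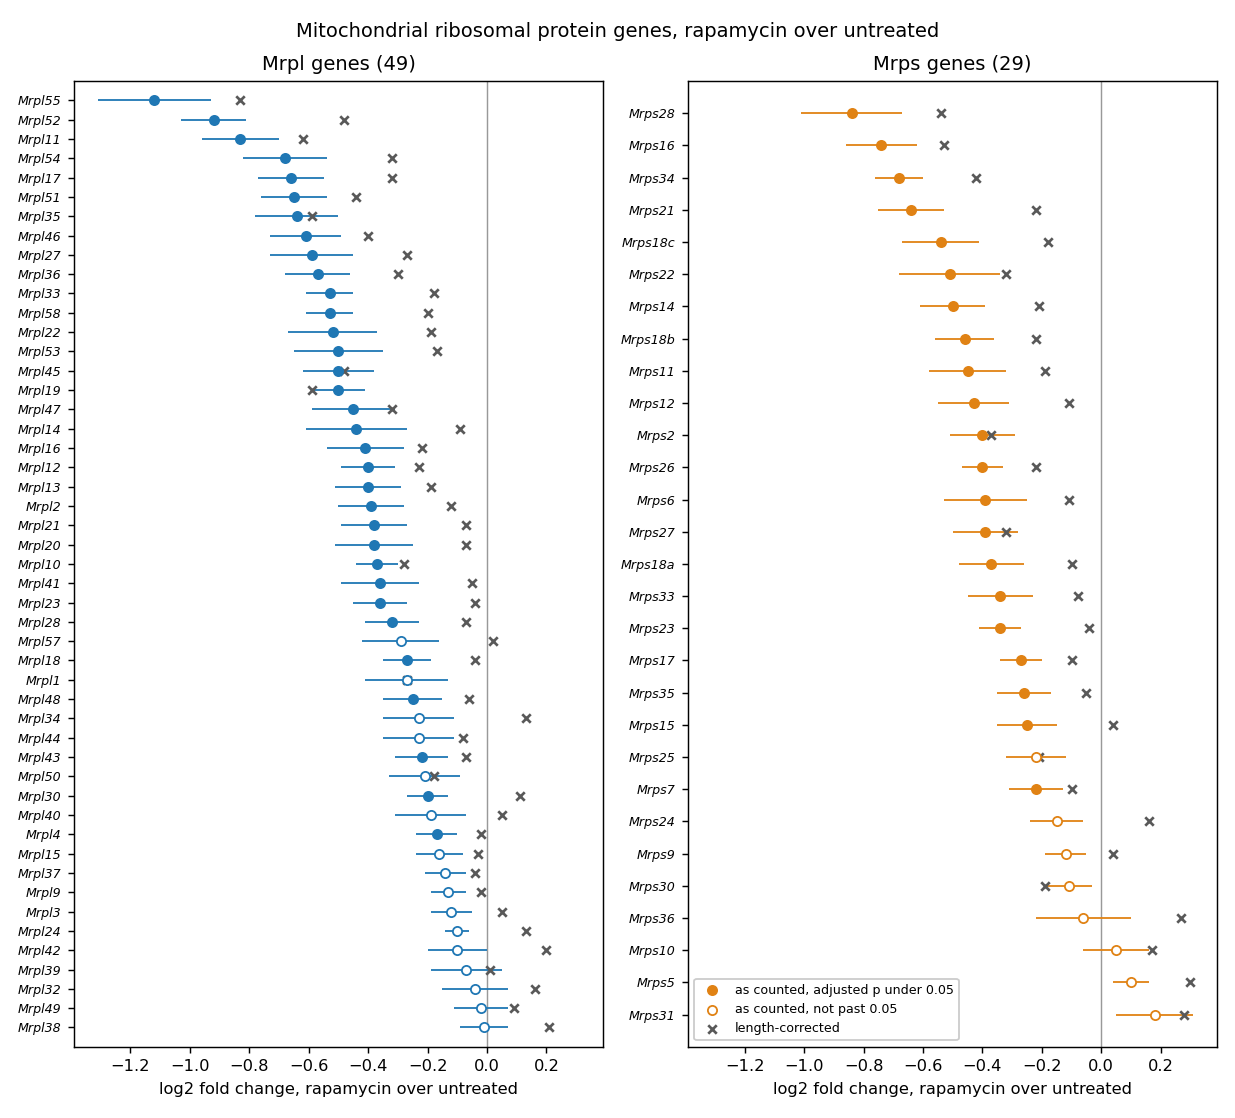
Log2 fold change, rapamycin over untreated, of each of the 49 Mrpl genes (left) and 29 Mrps genes (right); circles with bars are the uncorrected fit ± SE, filled where the adjusted p was under 0.05, and crosses are the length-corrected values. In the uncorrected fit 75 of 78 values are below 0, from −1.12 for Mrpl55 to 0.18 for Mrps31, and 60 of 78 crosses are below 0.

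Among the large subunit genes, Mrpl52 had the smallest adjusted p of all members. It encodes a protein that bacterial ribosomes lack (chr14:54426909-54429756, plus strand, GRCm38), and its promoter stretch above holds an ETS core 47 bases before the start. Its level was 99.5, 113 and 105 TPM in rapamycin libraries and 178, 196 and 165 TPM in untreated libraries. The groups lay far apart, with every rapamycin library below every untreated one. The log2 fold change was −0.92 ± 0.11 (SE, adjusted p = 1.7e-10), length-corrected −0.48. At 425 bases Mrpl52 is the shortest member.

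Mrpl58, also known as Ict1, is a peptidyl-tRNA hydrolase that became a fixed part of the large subunit and releases peptides from stalled ribosomes. It stood at 96.7, 88.9 and 90.6 TPM in rapamycin libraries and 129, 119 and 138 TPM in untreated libraries, again without overlap. Its log2 fold change was −0.53 ± 0.08 (adjusted p = 4.5e-08), length-corrected −0.20 and still called (adjusted p = 0.038).

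Mrpl11 and Mrpl12 encode proteins of the stalk region, where translation factors dock, and both belong to bacterial families. Mrpl11 had 15.1, 20.3 and 13.5 TPM with rapamycin and 27.3, 22.5 and 27.4 TPM without. The second library of each group lay closest to the other group, and the groups did not overlap. Its log2 fold change of −0.83 ± 0.13 (adjusted p = 3.5e-07) stayed at −0.62 after length correction. For Mrpl12 the levels were 32.7, 39.6 and 36.4 TPM with rapamycin and 48.0, 40.4 and 42.6 TPM without, a narrow gap. It changed by −0.40 ± 0.09 (adjusted p = 8.6e-05), length-corrected −0.23, and did not pass on TPM (adjusted p = 0.069 with limma).

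Mrpl33 and Mrpl51 were the other large subunit genes among the 8 members of smallest adjusted p. Mrpl33, of a bacterial family, had 88.1, 89.3 and 75.1 TPM in rapamycin and 121, 134 and 126 TPM in untreated libraries. It changed by −0.53 ± 0.08 (adjusted p = 3.6e-07) and was no longer called after length correction (−0.18, adjusted p = 0.077). Mrpl51, a protein bacterial ribosomes lack, had 20.8, 20.3 and 29.5 TPM in rapamycin and 38.0, 37.0 and 44.1 TPM in untreated libraries. The third rapamycin library was the nearest to the untreated ones, and the change was −0.65 ± 0.11 (adjusted p = 7.2e-07), length-corrected −0.44.

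The lowest fold change of all was that of Mrpl55, singled out after its values were seen. This large subunit gene, related to a bacterial family, had 14.4, 8.34 and 10.1 TPM in rapamycin and 18.7, 26.1 and 19.9 TPM in untreated libraries. Its replicates spread widely, but the groups did not overlap. The log2 fold change was −1.12 ± 0.19 (adjusted p = 1.4e-06), length-corrected −0.83.

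Among the small subunit genes, Mrps34 had the smallest adjusted p. Its protein, absent from bacteria, is needed for a stable small subunit in mammals. Levels were 47.5, 42.9 and 49.8 TPM in rapamycin and 73.2, 76.0 and 66.9 TPM in untreated libraries, with no overlap. The log2 fold change was −0.68 ± 0.08 (adjusted p = 7.4e-10), length-corrected −0.42. Mrps34 overlaps exons of Mapk8ip3 on the opposite strand over 1309 bases and of Nme3 on its own strand over 763 bases, and its expected counts were not whole in all 6 libraries, so reads may have been divided between these genes and its value is uncertain.

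Mrps16 and Mrps21 carry bacterial small subunit names, and Mrps26 does not occur in bacteria. Mrps16 had 19.4, 21.6 and 19.8 TPM with rapamycin and 30.3, 29.7 and 41.3 TPM without, a change of −0.74 ± 0.12 (adjusted p = 2.3e-07), length-corrected −0.53. Mrps26 had 59.5, 56.0 and 59.5 TPM with rapamycin and 67.2, 66.4 and 72.5 TPM without, a change of −0.40 ± 0.07 (adjusted p = 6.4e-07), length-corrected −0.22. Both pairs of groups were apart, and both genes stayed called after the correction. Mrps21, among the 3 members with the highest mean TPM, had 126, 103 and 110 TPM with rapamycin and 148, 139 and 157 TPM without. It changed by −0.64 ± 0.11 (adjusted p = 9.3e-07), and at 437 bases its length-corrected value of −0.22 was not called (adjusted p = 0.11).

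Mrps18a, Mrps18b and Mrps18c are paralogs that all descend from the same bacterial protein. Mrps18a is found in the large subunit in spite of its name. Mrps18a had 34.3, 35.8 and 32.8 TPM in rapamycin and 42.0, 39.2 and 45.8 TPM in untreated libraries. Mrps18b had 40.3, 30.6 and 36.1 TPM in rapamycin and 44.4, 44.0 and 44.4 TPM in untreated libraries. Mrps18c had 34.0, 50.4 and 46.4 TPM in rapamycin and 52.8, 55.1 and 65.1 TPM in untreated libraries. All 3 paralogs were lower without overlap. Their log2 fold changes were −0.37 ± 0.11, −0.46 ± 0.10 and −0.54 ± 0.13 (adjusted p = 0.0033, 7.4e-05 and 4.4e-04), and after length correction −0.10, −0.22 and −0.18, with none called. Mrps18b overlaps Gm16279 on the opposite strand over 638 bases and had counts that were not whole in all 6 libraries.

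**Figure D5:**
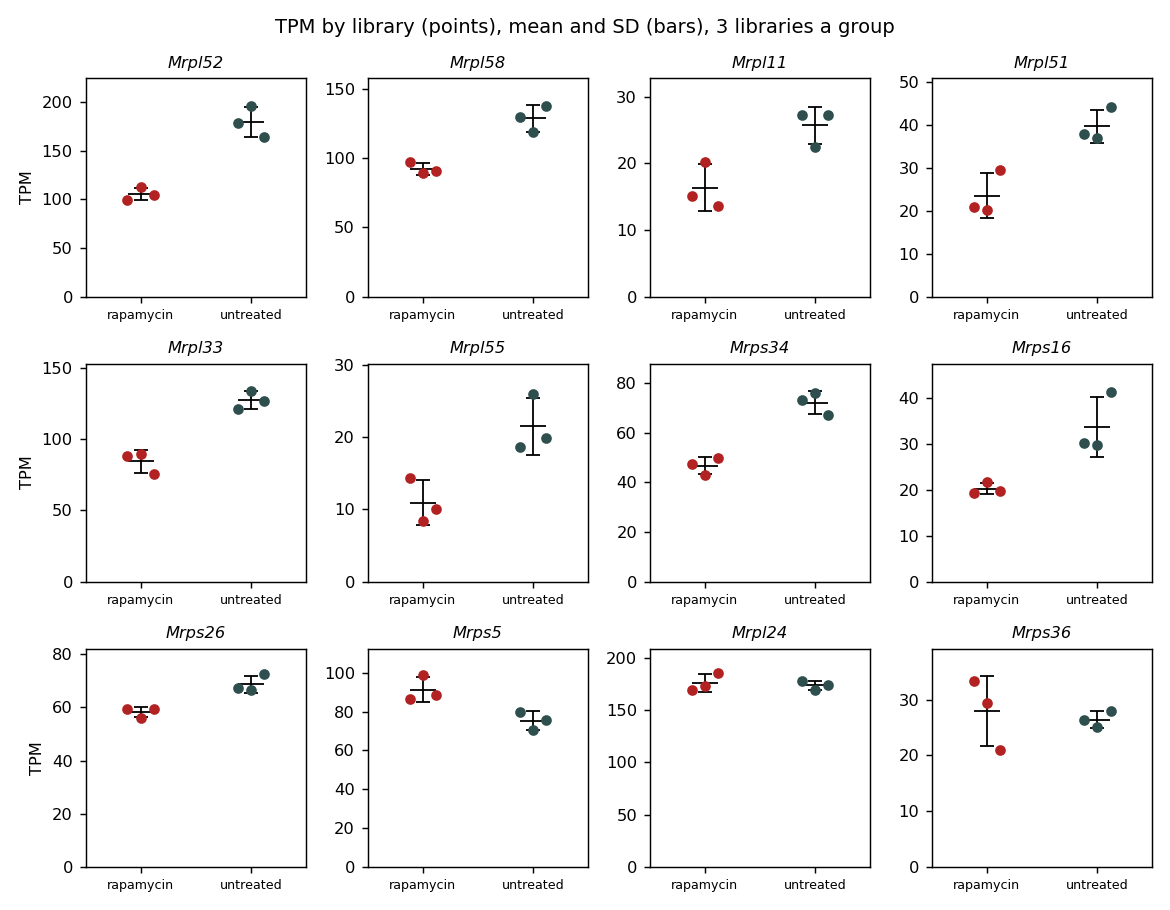
TPM of 12 members in each library (points) with the mean and SD of 3 libraries (bars), rapamycin left and untreated right, each panel starting at 0. The 9 genes from Mrpl52 to Mrps26 are lower in every rapamycin library, Mrps5 is higher in every rapamycin library, and the groups overlap for Mrpl24 and Mrps36.

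The members called higher after length correction were Mrps5, Mrpl24 and Mrpl38, none of them called in the uncorrected fit. Mrps5, the relative of the bacterial protein that guards decoding accuracy, was the only member whose rapamycin libraries all lay above the untreated ones. It had 86.6, 99.0 and 88.7 TPM with rapamycin and 79.9, 70.4 and 75.8 TPM without. The uncorrected change of 0.10 ± 0.06 did not pass (adjusted p = 0.19), while the length-corrected change of 0.30 did (adjusted p = 6.2e-05), as did the change of 0.27 on log2(TPM + 1) (limma adjusted p = 0.022). Its counts were not whole in 5 of 6 libraries.

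Mrpl24, of a bacterial family, had the highest mean TPM of all members. It stood at 169, 173 and 185 TPM in rapamycin and 178, 169 and 174 TPM in untreated libraries, and these overlap. On CPM (counts scaled to library size times edgeR's TMM factor) it stood at 99.6, 99.9 and 102.1 in rapamycin libraries. The untreated libraries stood at 109.8, 109.0 and 104.5, with every rapamycin library below. It changed by −0.10 ± 0.04 in the uncorrected fit (adjusted p = 0.056) and by 0.13 after length correction, where it was called higher (adjusted p = 0.019). This gene shares 594 exon bases with Rrnad1 on the opposite strand, and its counts were not whole in any library.

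Mrpl38 was also called higher after length correction only (0.21, adjusted p = 0.038), with an uncorrected change of −0.01 ± 0.08. Its levels were 57.2, 40.8 and 53.6 TPM in rapamycin and 43.1, 39.6 and 79.7 TPM in untreated libraries, which overlap. The third untreated library stood apart on TPM but not on CPM, where the untreated libraries gave 31.6, 29.8 and 33.4. RSEM assigns each library its own mean transcript length for a gene, and for Mrpl38 that length ranged from 776 to 1230 bases over the untreated libraries.

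Mrps30 and Mrps36 are named for the small subunit without being part of it. The Mrps30 protein sits in the large subunit, and Mrps36 is now known as a subunit of the 2-oxoglutarate dehydrogenase complex of the citric acid cycle. Mrps30 had 15.5, 14.7 and 16.7 TPM in rapamycin and 16.3, 16.4 and 15.0 TPM in untreated libraries, with overlap. It changed by −0.11 ± 0.08 (adjusted p = 0.22) and was called lower after length correction only, at −0.19 (adjusted p = 0.042). Mrps36 had 33.4, 29.4 and 21.0 TPM in rapamycin and 26.3, 25.0 and 28.0 TPM in untreated libraries, and its −0.06 ± 0.16 did not pass (adjusted p = 0.77). The rapamycin libraries of Mrps36 spread more widely than its untreated ones.

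Most genes of the large and of the small subunit were lower in the uncorrected fit. By symbol, 33 of 49 Mrpl genes (67.3%) and 21 of 29 Mrps genes (72.4%) were lower, 0 of either were higher, and both medians were −0.37. Over all tested genes 23.3% were lower and 24.1% higher. After length correction 13 Mrpl genes were lower (26.5%) and 2 higher (4.08%), with a median of −0.09. Of the Mrps genes 7 were lower (24.1%) and 1 higher (3.45%), with a median of −0.11. In that fit 18.3% of all genes were lower and 20.2% higher. With Mrps30 and Mrps18a counted in the large subunit and Mrps36 in neither, 34 of 51 large and 20 of 26 small subunit genes were lower. By place the medians were −0.37 for the large and −0.39 for the small subunit, and −0.10 and −0.14 after length correction. The difference between the subunits was not tested.

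Summed levels showed a small shift between the subunits. The Mrpl genes summed to 1961, 1964 and 1914 TPM in rapamycin and 2329, 2330 and 2373 TPM in untreated libraries. The Mrps genes summed to 1157, 1191 and 1164 TPM in rapamycin and 1328, 1316 and 1385 TPM in untreated libraries. Neither sum overlapped between groups. The ratio of Mrpl to Mrps was 1.70, 1.65 and 1.64 in rapamycin and 1.75, 1.77 and 1.71 in untreated libraries, and by place it was 1.87, 1.81 and 1.80 against 1.92, 1.93 and 1.88, so that all rapamycin values lay under all untreated ones by a narrow margin. Such sums are weighted toward the abundant members.

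Members of bacterial ribosomal protein families and members added to the ribosome in mitochondria were grouped after values had been seen. Mrpl58 was placed with the latter and Mrps36 in neither. Of 47 genes of bacterial families 36 were lower (76.6%, median −0.39, length-corrected −0.11). Of 30 genes added in mitochondria 18 were lower (60.0%, median −0.32, length-corrected −0.13), where 23.3% of all genes were lower. The order of the medians turned round with the length correction, and the lengths of the groups differed, with medians of 969 and 1181 bases. Across members the order of the levels was kept, with a Spearman's rho of 0.97 between mean TPM in the rapamycin and the untreated group (a description over 78 genes).

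The spread between libraries bears on which members can be read. The median coefficient of variation of a member was 10.5% in rapamycin and 8.85% in untreated libraries on TPM, and 9.19% in rapamycin and 6.78% in untreated libraries on CPM, where counting alone gives a median of 7.26%. On CPM, 56 members had every rapamycin library below every untreated one and 1 above, where 26.8% of all tested genes were below and 26.9% above. On TPM it was 32 members below and 1 above, where 14.8% of all genes were below and 32.2% above.

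TPM and counts disagreed most in Mrpl19, Mrpl1 and Mrpl18, whose assigned transcript length shifted. For 12 members the ratio of group means had opposite signs on the 2 scales. Some of these, such as Mrpl24, Mrpl42 and Mrps36, had hardly any shift in length and small changes. Their log2 ratios were −0.10, −0.10 and −0.07 on CPM and 0.02, 0.03 and 0.08 on TPM. The widest gap was in Mrpl19, a large subunit gene of a bacterial family, which changed by −0.50 ± 0.09 on counts (adjusted p = 2.5e-06) and had 17.6, 13.8 and 8.42 TPM with rapamycin against 12.3, 13.6 and 11.5 TPM without. Its mean assigned length was 3104 bases in rapamycin and 3993 bases in untreated libraries, and it overlaps Gcfc2 on the opposite strand over 1962 bases. The other members with a shift of more than 10% were Mrps10, Mrpl1, Mrpl18 and Mrpl51, 5 in all.

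Expected counts of 17 members were not whole (within 0.005) in at least 1 library. Of the 61 members with whole counts throughout 43 were lower (70.5%), with a median of −0.38. Of the 17 others 11 were lower (64.7%), with a median of −0.36, where 23.3% of all tested genes were lower. Exons of 11 members overlapped exons on the opposite strand by at least 300 bases, and all 11 had counts that were not whole. Of 58 members with less antisense overlap, no overlap on their own strand and no pseudogene named for them, 3 also had counts that were not whole. The strand setting used in counting is not given in the sources used here, so reads of these genes and of their antisense neighbours may not have been told apart. Of the 3 members called higher after length correction, Mrpl38 was the one with whole counts throughout.

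Many mitoribosome genes start near a protein-coding gene on the other strand, though whether they share a promoter was not tested. A protein-coding start site within 1000 bases, facing the other way, was found for 33 of 78 members (42.3%), and for 17.8% of the other tested protein-coding genes. Of the members with such a partner 23 of 33 were lower and of those without 31 of 45, with medians of −0.37 in both sets. After length correction it was 7 of 33 (21.2%) and 13 of 45 (28.9%), and the difference was not tested. The partners themselves were mixed. Of 29 tested partners 11 were lower (37.9%), 5 higher (17.2%) and 13 not called, with a median of −0.13, where 23.3% of all genes were lower and 24.1% higher. Mrpl46 and Mrps11 are each other's partner and stand among those 11, and of the 27 other partners 9 were lower (33.3%). After length correction 6 of the 29 were lower and 3 higher, with a median of −0.03, where 18.3% of all genes were lower and 20.2% higher.

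In 7 pairs both genes were lower, and in 5 the member was lower and the partner higher. Mrpl46 and Mrps11, the only pair made of members from both subunits, have start sites 412 bases apart, each inside the other gene. Mrpl46 had 21.9, 18.8 and 19.6 TPM in rapamycin and 26.9, 28.3 and 30.4 TPM in untreated libraries, a change of −0.61 ± 0.12 (adjusted p = 1.4e-05), length-corrected −0.40 and still called. Mrps11 had 20.0, 20.5 and 23.4 TPM in rapamycin and 24.7, 28.0 and 27.2 TPM in untreated libraries, a change of −0.45 ± 0.13 (adjusted p = 0.0043), length-corrected −0.19 and not called. Mrpl36 and its partner Ndufs6, a subunit of respiratory complex I, also both fell, with log2 fold changes of −0.57 and −0.53. After length correction Mrpl36 was still called (−0.30) and Ndufs6 was not (−0.15). By contrast Mrpl2 changed by −0.39 while its partner Klc4, a kinesin light chain, rose by 0.52, and Mrpl41 changed by −0.36 while Pnpla7, a lysophospholipase, rose by 0.45. After length correction both partners were still called higher, and Mrpl2 (−0.12) and Mrpl41 (−0.05) were not called.

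Motifs were counted in RefSeq windows from 250 bases before to 50 after the start, which were found for 69 of the 78 members by symbol. For a gene with more than 1 start, as 3 members have, a match in any of its windows counted. The ETS core CCGGAAG, on either strand, was in the windows of 26 of 69 members (37.7%), and of 22.5% of 8343 other tested protein-coding genes and 13.3% of all 16444 others. The YY1 motif AAGATGGC was in 12 (17.4%), against 5.78% of other tested genes. The palindromic NRF1 motif was in 3 (4.35%), against 2.64%, the E-box CACGTG in 5 (7.25%), against 12.1%, and the ERR motif TCAAGGTCA in 0, against 0.324%. Every motif was searched on both strands, matches of different motifs could overlap, and a match in a window is a description of the sequence.

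Of the 26 members with the ETS core 23 were lower (88.5%), with a median of −0.44, and of the 43 without it 24 were lower (55.8%), with a median of −0.27. The genes with the core were also shorter, with a median of 784 bases and 1183 bases without. After length correction the medians were −0.18 and −0.09. In that fit 7 of the 26 and 10 of the 43 were lower, where 18.3% of all tested genes were lower. Among the other tested genes the core went with a smaller gap, 27.4% lower with it and 23.6% without. For YY1, 7 of 12 members with the motif were lower, with a median of −0.30, and the median without it was −0.37. Of the 3 members with the NRF1 motif 0 were lower. These differences were not tested.

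Among the promoter stretches printed above, Mrps22 and Mrpl48 carry an ETS core 11 and 34 bases before the start used there, which for Mrpl48 is an internal start. Mrps22, a small subunit protein absent from bacteria, had 11.0, 7.74 and 8.95 TPM in rapamycin and 10.8, 14.6 and 12.6 TPM in untreated libraries, and the groups overlap. Its change of −0.51 ± 0.17 (adjusted p = 0.0098) was not called after length correction (−0.32, adjusted p = 0.13) or on TPM (limma adjusted p = 0.078). Mrpl48 changed by −0.25 ± 0.10 (adjusted p = 0.041), Mrpl20 with its E-box by −0.38 and Mrps23 by −0.34. None of these 3 was called after length correction (−0.06, −0.07 and −0.04), whereas Mrps16 was (−0.53). The stretches of Mrps16 and Mrps23 show none of the 5 motifs. The 300-base windows counted above, which extend further to both sides, hold the ETS core in both genes. Mrps16 has 2 RefSeq starts, and its core may lie in the window of the start not shown. The genes shown were picked by their adjusted p, so that they were lower in the uncorrected fit is no finding.

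The genes that work with the mitoribosome were described from 4 lists. Over their 58 genes 19 were lower (32.8%), 2 higher (3.45%) and 37 not called, with a median of −0.18, where 23.3% of all genes were lower and 24.1% higher. After length correction 8 were lower (13.8%) and 7 higher (12.1%), where 18.3% of all genes were lower and 20.2% higher. Without the third untreated library 1 was higher. Of the 5 mitoribosome proteins that carry other names, 4 were lower and 1 higher. Dap3, a GTP-binding protein of the small subunit, had 110, 105 and 104 TPM in rapamycin and 120, 141 and 123 TPM in untreated libraries, a change of −0.28 ± 0.05 (adjusted p = 8.2e-06), length-corrected −0.08. Aurkaip1 and Chchd1, also of the small subunit, changed by −0.32 and −0.49, length-corrected −0.08 and −0.13. None of these 3 was called after length correction. The other lower gene of this list, Gadd45gip1, changed by −0.26 and was still called after length correction (−0.26, adjusted p = 0.0073). Ptcd3, a pentatricopeptide protein of the small subunit, was the exception at 0.14 ± 0.06 (adjusted p = 0.032), with 63.8, 62.8 and 63.8 TPM in rapamycin and 48.4, 54.3 and 51.1 TPM in untreated libraries. It was also higher after length correction (0.20, adjusted p = 0.0025) and on log2(TPM + 1) (0.30, limma adjusted p = 0.0064).

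Factors that assemble the ribosome or modify its RNA were 8 lower (28.6%) and 0 higher of 28. After length correction 3 of them were lower (10.7%) and 3 higher (10.7%). Mpv17l2, an inner membrane protein needed for assembly, had 20.4, 26.7 and 19.1 TPM in rapamycin and 32.9, 32.6 and 33.6 TPM in untreated libraries, a change of −0.76 ± 0.13 (adjusted p = 1.1e-06), length-corrected −0.49. The pseudouridine synthase family gene Rpusd3 changed by −0.84, with overlapping TPM values, and the GTPase gene Mtg1 by −0.50. Of 18 translation factors 6 were lower (33.3%) and 1 higher, and after length correction 4 were lower (22.2%) and 2 higher (11.1%). Over all genes 23.3% were lower and 24.1% higher in the uncorrected fit. After length correction these shares were 18.3% and 20.2%. Tufm, the elongation factor that brings charged tRNAs to the ribosome, had 58.7, 61.8 and 56.0 TPM in rapamycin and 71.9, 70.6 and 69.4 TPM in untreated libraries, a change of −0.36 ± 0.06 (adjusted p = 3.2e-07). Hemk1, which methylates release factors, and Guf1, an elongation factor 4 relative, changed by −0.59 and −0.26, and Gfm2, which splits ribosomes for recycling, rose by 0.21. Of 7 transcription factors of mitochondrial DNA, Tfam was the one called, at −0.18 (adjusted p = 0.013), and not after length correction (−0.09).

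The RNAs that these proteins assemble with or translate are encoded in mitochondrial DNA. The ribosomal RNA mt-Rnr1, of the small subunit, had 404, 412 and 392 TPM in rapamycin and 499, 482 and 498 TPM in untreated libraries (−0.41 ± 0.03, length-corrected −0.15). That of the large subunit, mt-Rnr2, changed by −0.13 ± 0.02 and was not called after length correction (−0.02), and both RNAs carry only short tails in libraries made from poly(A) RNA. The 13 mRNAs encoded in mitochondrial DNA, which this ribosome translates, summed to 52900, 51000 and 52600 TPM in rapamycin and 44900, 45400 and 45100 TPM in untreated libraries. That sum, weighted toward the abundant transcripts, was higher in all rapamycin libraries. Gene by gene, 7 of the 13 were higher (53.8%), 3 lower (23.1%) and 3 not called, with a median log2 fold change of 0.05. Over all tested genes 24.1% were higher and 23.3% lower. The length-corrected fit called 10 of the 13 higher (76.9%) and 0 lower (median 0.31), where 20.2% of all genes were higher and 18.3% lower.

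Known regulators of nuclear genes for mitochondria went in both directions on counts. Of 8 tested, 3 were lower and 3 higher, where 23.3% of all genes were lower and 24.1% higher. After length correction 2 were lower and 2 higher, where 18.3% of all genes were lower and 20.2% higher. On log2(TPM + 1) 0 were lower and 4 higher, where 9.63% of all genes were lower and 22.8% higher. Yy1 and Nrf1, whose motifs were counted above, rose by 0.25 ± 0.03 (adjusted p = 4.3e-10) and 0.27 ± 0.05 (adjusted p = 1.7e-05), and Yy1 was no longer called after length correction (0.03). The GABP subunit gene Gabpb1 changed by −0.18 ± 0.07 (adjusted p = 0.025), and Gabpa, which encodes its DNA-binding partner, did not pass (0.10, adjusted p = 0.11). Among the coactivators, Ppargc1b rose by 0.52 ± 0.11 (adjusted p = 9.1e-05), with 8.12, 10.1 and 8.71 TPM in rapamycin and 5.58, 5.56 and 6.54 TPM in untreated libraries. Pprc1 did not pass (0.07), and Ppargc1a, at 0.485 CPM in rapamycin and 0.333 CPM in untreated libraries, was near the floor of 3 counts (0.263 to 0.343 CPM) and was not tested. Esrra, an orphan nuclear receptor, changed by −0.22 ± 0.06 (adjusted p = 0.0035), and Myc by −0.11 ± 0.04 (adjusted p = 0.029, length-corrected −0.06 and not called).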

How the data were processed

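Poly(A) RNA of 6 libraries was made into directional libraries with the NEBNext Ultra II kit, per the labels' protocols, and processed with STAR and RSEM against mm10, per the submitters' processing notes, with versions not given in the sources used here. The deposited tables give the authors' RSEM expected counts, estimates that divide shared reads between genes, and the authors' TPM and FPKM, which are scaled for effective length and depth. FPKM was not used. Symbols came from GENCODE vM21 on GRCm38, which matched 55227 of 55487 identifiers, and 260 had no match (0.013% of counts or less).

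Counts were rounded to whole numbers, filtered with edgeR's filterByExpr (11950 genes left), scaled with TMM factors and tested with edgeR's quasi-likelihood test (robust), with Benjamini-Hochberg adjustment over all tested genes and a threshold of 0.05. The length correction is a spline of 5 degrees of freedom per library on log2 gene length, entered as an offset. TPM was tested with limma on log2(TPM + 1), a scale that understates changes of low genes. Alternatives were other scaling factors, no filter, a filter of 2 CPM in 3 libraries, DESeq2, log2(TPM + 0.1), length and GC, effective-length offsets, a replicate block and leaving out each library; length-corrected counts without each library and members with whole counts were added after the data were seen. The procedure was tested on simulated data. A floor of 3 counts was between 0.263 and 0.343 CPM, taken on library totals without TMM factors, and it covers counting error only. Tools were edgeR 4.0.16, DESeq2 1.42.0 and limma 3.58.1 in R 4.3.3, and matplotlib 3.10.9 in Python 3.11.15.

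The members, companion lists and tests were chosen with earlier results of these data known. The genes named in full were the 8 members of smallest adjusted p, the 3 with the highest mean TPM, those higher in the uncorrected or length-corrected fit, the Mrps18 paralogs and Mrpl12, Mrpl58, Mrps30 and Mrps36, with up to 3 genes per companion list and all listed regulators. Further members and companion genes named in the text were chosen after their values were seen. Promoter sequences are RefSeq's (GRCm38.p6).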

Additional observations from a re-analysis of the deposited data

How the results depend on the processing

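The direction of the members' median was the same under every alternative run. Its size in some fits, and the number of calls, differed most with the treatment of length. Other choices moved the calls less. There were 61 members lower with upper-quartile factors, 61 with no composition factors, 57 with no filter and 46 with DESeq2. Members lower, 54 in the uncorrected fit, were 24 with limma on log2(TPM + 1) and 24 on log2(TPM + 0.1), 20 with the length correction, 20 with length and GC, 32 with effective-length offsets and 20 with the replicate block and length correction, and between 47 and 51 without each library in turn. Members higher, 0 in the uncorrected fit, were 1, 1, 3, 3 and 3 under the same settings without the effective-length offsets. The median of all members, −0.37, was −0.24 and −0.25 on the TPM scales, where the median of all genes shifted by 0.10 and 0.11, −0.37 with effective-length offsets, and −0.11, −0.10 and −0.11 with length, length and GC, and block and length. The large subunit gave −0.24, −0.24, −0.09, −0.08 and −0.10 and the small subunit −0.25, −0.26, −0.11, −0.11 and −0.11. On summed TPM the members' ratio, rapamycin over untreated, was 0.845.

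Companion genes lower, 19 in the uncorrected fit, were 6 and 6 on TPM, 8, 9 and 9 with length, length and GC, and effective-length offsets, and 8 with the block and length. Companion genes higher, 2 in the uncorrected fit, were 1 with upper-quartile factors, no composition factors, no filter, DESeq2 or effective-length offsets, 7 with length, 4 with length and GC, 6 with the block and length, and between 1 and 2 without each library. All genes lower were 1151 and 1137 on TPM and 1801 with effective-length offsets. Length-corrected, members lower ranged from 14 to 18 and members higher from 2 to 3 without each library, and 1 of the members with whole counts was higher.

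Of 342 checks of the 18 members named by rule under 19 alternatives, 295 kept the direction and side of the threshold, 19 lost a call, 12 gained one and 16 changed sign. Those that changed sign were Mrpl24 (0.02 and 0.02 on TPM, 0.13 with length, 0.12 with length and GC, 0.13 with block and length), Mrpl38 (0.21, 0.22 and 0.21 with the length fits, and between −0.05 and 0.04 without each library, with 0.04 without rapamycin replicate 2 and 0.03 without untreated replicate 3) and Mrps36 (0.06 and 0.06 on TPM, 0.27, 0.26 and 0.27 with the length fits, and between −0.21 and 0.08 without each library, with 0.08 without rapamycin replicate 3), all 3 not called in the uncorrected fit. Same-numbered libraries did not deviate together (correlations of −0.025, −0.009 and −0.031 over 9925 genes). The labels do not say whether same-numbered samples were handled together, and these correlations cannot exclude it. The replicate block left 54 members lower and 0 higher. The cause of these differences was not tested. Depth limits the lesser expressed members, the lowest of which averaged 70.2 counts.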
